A study of Mus musculus with 36 samples.

Results

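The genes of the WNT pathway were followed in mouse embryonic fibroblasts (MEFs) with and without a mitofusin while the cells were driven towards adipocytes. They were taken by symbol, with no measured value, from the 14761 genes of the deposited table. The rule took the WNT ligands (Wnt), Frizzled receptors (Fzd), secreted Frizzled-related proteins (Sfrp), Dickkopf proteins (Dkk), R-spondins (Rspo) and the Axin, Nkd and Kremen inhibitors, together with Lrp5, Lrp6, Ctnnb1, Tcf7, Tcf7l1, Tcf7l2, Lef1, Porcn, Wls, Znrf3 and Apcdd1. It found 44 genes, of which 43 reached 10 normalized counts in at least 3 of the 36 libraries and were tested. The remaining one, Rspo4os, an antisense RNA that shares the R-spondin symbol, lay between 0 and 5.26 normalized counts. Dkk1, Frzb, Wif1 and Rnf43 were not analysed here.

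Wild-type (WT) MEFs were compared with MEFs that lacked Mfn1 (Mfn1-/-) or Mfn2 (Mfn2-/-), the 2 GTPases that join the outer membranes of mitochondria. Confluent cells were sampled at day -2, and every line received the same adipogenic cocktail at day 0 (rosiglitazone, IBMX, dexamethasone, insulin, D-pantothenic acid and biotin), with rosiglitazone, insulin, D-pantothenic acid and biotin given again at days +2, +4 and +6. Mfn1-/- cells and WT libraries A to C were measured at days -2, 0, +3 and +8, and Mfn2-/- cells and WT libraries D to F at days -2 and +8, with 3 biological replicates in each of 12 groups. Each genotype was a single cell line, so the missing gene and any other difference between the lines cannot be told apart. In RNA from whole cultures, fewer cells of a type and less RNA per cell cannot be told apart either.

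WNT proteins are lipid-modified ligands that bind Frizzled receptors together with the co-receptors Lrp5 and Lrp6. Binding blocks the complex of Axin and its partners that degrades beta-catenin, which then joins TCF/LEF factors on DNA, whereas other WNT ligands act through routes that do not need beta-catenin. In preadipocytes, beta-catenin signalling, and Wnt10b in particular, is known for holding back adipocyte differentiation.

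The libraries held 8800674 to 37011894 reads, with a median of 12641490.5. The targeted genes were checked first. Mfn1 RNA lay between 163 and 376 normalized counts in the Mfn1-/- libraries of days -2, 0 and +3, against 963 to 1457 in WT libraries A to C of those days. At day +8 the libraries labelled Mfn1-/- held 1152, 754 and 647, against 841, 820.0 and 919 in WT, so Mfn1 RNA did not set those groups apart. Each value given for Mfn1-/- cells over all days or between days -2 and +8 includes these libraries. In the day +8 libraries labelled Mfn1-/-, Mfn2 RNA stood at 2809, 2543 and 1723, against 1267, 1222 and 1193 in WT. On days -2, 0 and +3 it lay between 1187 and 1901 in Mfn1-/- libraries, against 1014 to 1811 in WT libraries A to C. Mfn2 RNA lay between 205 and 302 in Mfn2-/- libraries and between 902 and 1015 in WT libraries D to F. Of 12 fibroblast markers 11 were in the table, and all 11 were above 0 in every group. Their sum was 88546 to 100114 normalized counts in Mfn2-/- libraries, against 211946 to 361927 in WT libraries D to F. The day +8 libraries labelled Mfn1-/- summed to 157991 to 270331, against 325194 to 590321 in WT. Of 12 adipocyte markers 5 were in the table, with sums of 163794 to 185768 in the day +8 libraries labelled Mfn1-/-, against 11157 to 14385 in WT. These sums were higher in Mfn1-/- libraries on the other days as well, at 2668 to 6044 against 281 to 380.2 in WT at day -2, 11390 to 14214 against 654 to 859 at day 0 and 22827 to 31846 against 1908 to 2606 at day +3. Most of each Mfn1-/- sum on these days was 1 gene, Lpl, with means of 3241, 11166 and 24329. In Mfn2-/- libraries the sums were 1371 to 1587 at day -2, where Fabp4 and Pparg were at 0, against 169.8 to 182 in WT, and 1603 to 1799 at day +8 against 21317 to 42785. There too Lpl made up most, with means of 1378 and 1313. Of 10 mesothelial and simple epithelial markers 8 were in the table, with sums of 32901 to 36747 in Mfn2-/- libraries at day -2 and 14533 to 15028 at day +8, against 1320 to 1386 and 259.6 to 354 in WT libraries D to F. Kdr, 1 of 6 endothelial markers and the one in the table, averaged 685 and 331 in Mfn2-/- libraries at days -2 and +8, against 0.973 and 0.988 in WT. The 3 leukocyte markers in the table, of 6, summed to 55.0 to 269.5 in the 36 libraries. The part of these marker differences in the results was not tested.

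Ligands, R-spondins and inhibitors differed between each knockout line and its WT libraries. A gene is called where limma gave a two-sided Benjamini-Hochberg adjusted p under 0.01. Where a call ended in a fit without a library, that library is named with the adjusted p of the fit. At day -2, 28 of 43 WNT genes were called in Mfn1-/- cells (13 higher and 15 lower, where 12.5% and 9.98% of all genes were), beside 22.4% of all 14293 genes tested. At day 0 there were 22 (7 higher and 15 lower, where 10.7% and 10.8% of all genes were), beside 21.5% of all genes. At day +3 there were 20 (4 higher and 16 lower, where 10.6% and 10.8% of all genes were), also beside 21.5%. At day +8, 24 were called in the libraries labelled Mfn1-/- (1 higher and 23 lower, where 23.5% and 26.7% of all genes were), beside 50.2% of all genes. Mfn2-/- cells had 30 called at day -2 (16 higher and 14 lower, where 16.4% and 19.1% of all genes were), beside 35.5%. At day +8 there were 28 (10 higher and 18 lower, where 17.1% and 21% of all genes were), beside 38.1%. The share of the 43 genes called was above that of all genes in each comparison, by little in the day +8 libraries labelled Mfn1-/- (55.8% beside 50.2%). The median log2 fold change of the 43 genes in Mfn1-/- cells was -0.07 at day -2, -0.46 at day 0 and -0.40 at day +3, and -0.84 in the libraries so labelled at day +8, where the medians of all genes were -0.02, -0.01, 0.00 and -0.07. In Mfn2-/- cells it was -0.11 at day -2 and -0.44 at day +8, beside -0.02 and -0.03. Log2 fold changes are on the scale of log2(normalized count + 1), which understates the change of low genes, and are given with their standard error.

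**Figure D1:**
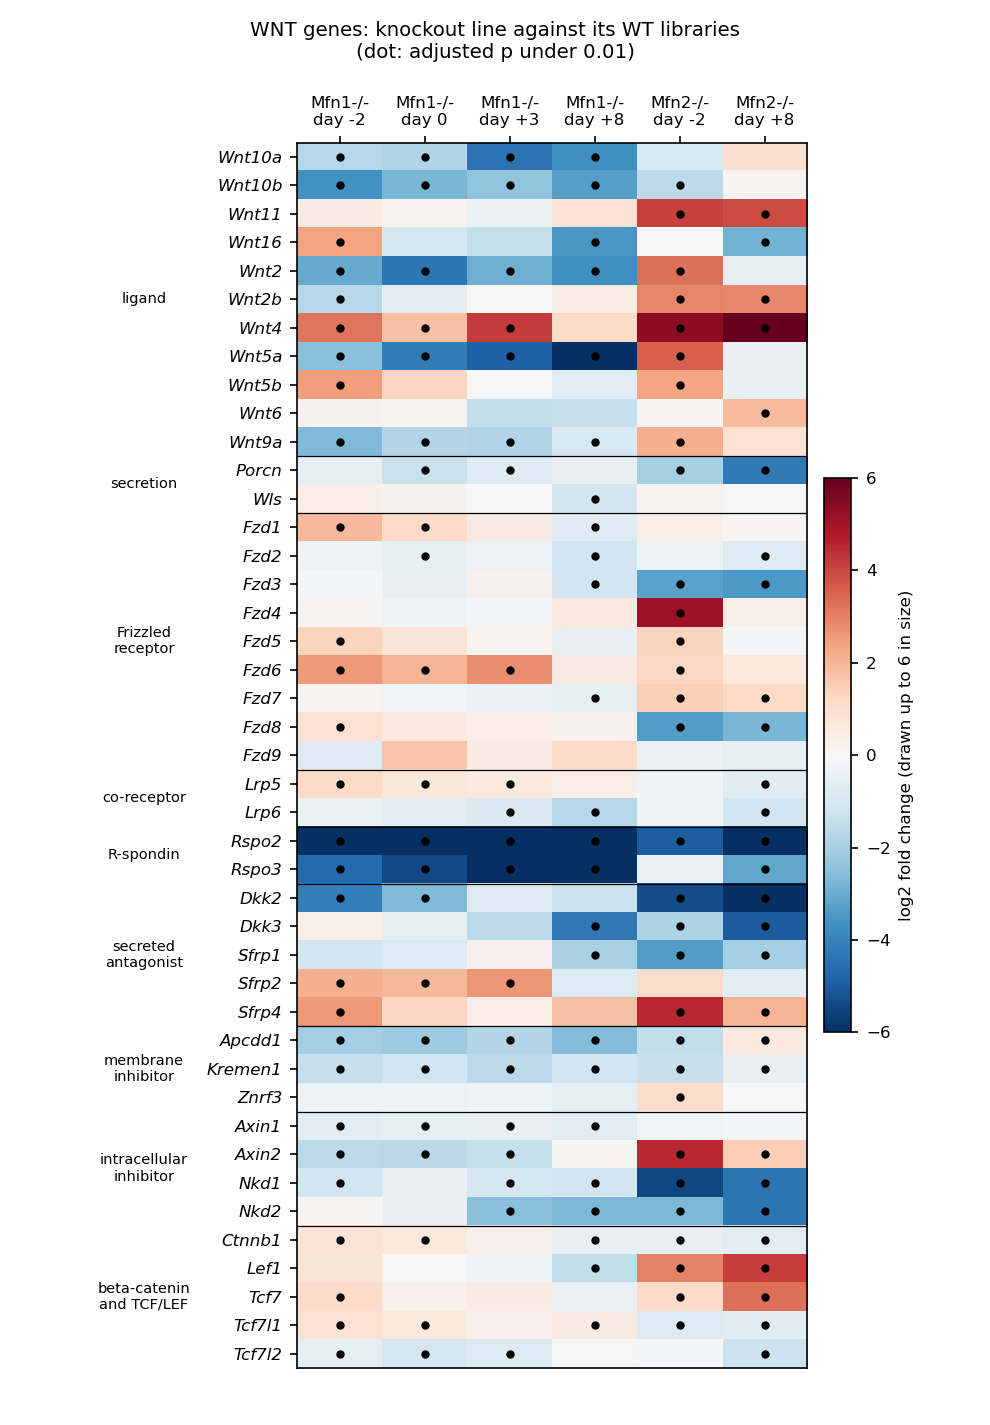
Log2 fold change against WT (colour, log2(normalized count + 1) scale, drawn up to 6 in size) of the 43 tested WNT genes (rows, by role) in the 6 comparisons of a knockout line with its WT libraries (columns), with a dot where the adjusted p was under 0.01. Rspo2 is lower in all 6 columns, and Wnt4 lies at 5.37 and 6.55 in Mfn2-/- cells.

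In Mfn1-/- cells 10 WNT genes were lower on all 4 days, with day +8 taken from the libraries so labelled, namely the ligands Wnt10a, Wnt10b, Wnt2, Wnt5a and Wnt9a, the R-spondins Rspo2 and Rspo3, and the inhibitors Apcdd1, Axin1 and Kremen1. These are 23.3% of the 43, and 0 of 43 were higher on all 4 days, whereas 8.76% of all genes were called in 1 direction on all 4 days (626 higher and 626 lower). Of the 10, Apcdd1, Kremen1, Rspo2 and Rspo3 held under every alternative on all 4 days. Each of the others lost its call under some alternative on some day. For Wnt10b, Wnt9a and Wnt2 this includes day +3, where the alternatives are not itemised here. Fzd4, Fzd9, Wnt11, Wnt6 and Znrf3 were called on none of the 4 days.

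The ligand Wnt5a was lower on all 4 days. Wnt5a (chr14:28504750-28527448, GRCm38) signals mainly through routes that do not need beta-catenin. At day -2 it stood at 194, 217 and 629 normalized counts in WT libraries A, B and C and at 132, 40.4 and 24.5 in the Mfn1-/- libraries. No Mfn1-/- library reached a WT library at day -2, with WT library C far above A and B, and the log2 fold changes were larger in size later. At day +8 WT libraries held 1343, 1570.0 and 1338 and the libraries labelled Mfn1-/- held 36.2, 14.7 and 16.6. The log2 fold change was -2.53 ± 0.55 at day -2 (adjusted p = 0.000654), -4.21 ± 0.55 at day 0 (adjusted p = 6.17e-07), -4.87 ± 0.55 at day +3 (adjusted p = 4.90e-08) and -6.02 ± 0.55 at day +8 (adjusted p = 3.15e-10). The day -2 call ended without Mfn1-/- library C (0.0101) and under 3 other settings. On 4.58% of its exon bases Wnt5a overlaps Gm2670 on the other strand, and whether reads were counted by strand is not given in the sources used here.

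Wnt10b, the ligand best known for holding back adipogenesis (chr15:98770712-98778150), was lower on every day in Mfn1-/- cells. Its values at day -2 were 519.5, 549.9 and 275 in WT and 74.5, 26.96 and 18.1 in Mfn1-/- libraries (log2 fold change -3.65 ± 0.43, adjusted p = 6.62e-08). Every WT library was above every Mfn1-/- library. At day 0 WT libraries held 309, 264 and 214 and Mfn1-/- libraries 51.9, 37.7 and 27.4 (log2 fold change -2.75 ± 0.43, adjusted p = 8.68e-06). At day +3 they held 59.0, 29.9 and 72.2 against 10.0, 11.8 and 5.31, a call that did not hold under every alternative. At day +8 it had fallen in both, to 47.1, 55.0 and 77.3 in WT and 2.90, 3.39 and 11.4 in the libraries labelled Mfn1-/- (log2 fold change -3.32 ± 0.43, adjusted p = 1.20e-07). The groups remained apart there too. The family member Wnt10a, also a beta-catenin ligand, stood at 69.5, 38.7 and 48.9 in WT and 1.11, 0 and 5.31 in Mfn1-/- libraries at day +3 (log2 fold change -4.45 ± 0.49, adjusted p = 1.51e-08). At day +8 it was 38.6-fold lower [95% counting interval 6.66 to 1553] by reads. Its earlier calls were less firm. At day -2 (-1.71 ± 0.49, adjusted p = 0.00703) the call ended without WT library A (0.0735), WT library B (0.0294), Mfn1-/- library A (0.0426) or Mfn1-/- library C (0.0225) and under 3 other settings, and at day 0 (-1.80 ± 0.49, adjusted p = 0.00479) without WT library A (0.0502), WT library B (0.0196), Mfn1-/- library A (0.0271) or Mfn1-/- library C (0.0184) and under 2 other settings.

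Wnt9a and Wnt2 followed the same order in Mfn1-/- cells. Wnt9a, a ligand of joint and limb development, held 408, 245 and 190.3 in WT and 55.3, 35.5 and 36.1 in Mfn1-/- libraries at day -2 (log2 fold change -2.66 ± 0.31, adjusted p = 4.53e-08), and 414, 233 and 179.6 against 66.8, 78.2 and 85.0 at day 0 (log2 fold change -1.75 ± 0.31, adjusted p = 4.60e-05). By day +8 the gap had narrowed to 107, 78.3 and 82.0 against 68.1, 38.4 and 33.3. That last difference (-0.98 ± 0.31, adjusted p = 0.00765) lost its call without WT library A (0.0412), WT library B (0.0117), WT library C (0.0138), Mfn1-/- library B (0.0327) or Mfn1-/- library C (0.0496) and under 5 other settings, and within same-lettered pairs of libraries, which deviated together at day +8, its adjusted p was 0.0114. Wnt2, a beta-catenin ligand, was near the limit of detection throughout. At day -2 WT libraries held 12.7, 4.45 and 6.07 and all 3 Mfn1-/- libraries 0 (adjusted p = 0.00017). At day 0 it was 40.7-fold lower [95% counting interval 10.9 to 342], and at day +8 at least 11.3-fold lower, the latter set against 3 reads over the group. These intervals and bounds cover counting error only.

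Wnt4 and Wnt5b went the other way. Wnt4 (chr4:137277489-137299726), a ligand of kidney and gonad development, held 12.7, 14.5 and 16.0 in WT and 114, 199.7 and 123 in Mfn1-/- libraries at day -2 (log2 fold change 3.21 ± 0.41, adjusted p = 2.44e-07). At day +3 the values were 7.37, 22.0 and 16.0 in WT and 247, 296 and 279 in Mfn1-/- libraries (log2 fold change 4.20 ± 0.41, adjusted p = 1.42e-09). Every Mfn1-/- library was above every WT library on all 4 days, but the day 0 call (1.74 ± 0.41, adjusted p = 0.00134) ended without WT library A (0.0186) or Mfn1-/- library C (0.0132) and under 1 other setting, and the day +8 difference was not called (1.16 ± 0.41, adjusted p = 0.0157). Wnt5b, a close relative of Wnt5a that promotes adipocyte differentiation in culture, held 10.6, 13.4 and 28.2 in WT and 80.5, 80.9 and 130.3 in Mfn1-/- libraries at day -2 (log2 fold change 2.50 ± 0.54, adjusted p = 0.000548). From day +3 its groups overlapped.

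Wnt16 changed sides. At day -2 it held 3.19, 0 and 6.50 in WT and 20.4, 8.58 and 21.9 in Mfn1-/- libraries, and at day +8 19.0, 12.1 and 26.0 in WT and 0, 0 and 4.16 in the libraries labelled Mfn1-/- (log2 fold change -3.47 ± 0.66, adjusted p = 4.44e-05). The difference at day -2 (2.41 ± 0.66, adjusted p = 0.00535) was lost without WT library B (0.082), Mfn1-/- library A (0.0249) or Mfn1-/- library C (0.0299) and under 5 other settings. Wnt2b, Wnt6 and Wnt11 remain. Wnt2b was lower at day -2 (-1.69 ± 0.46, adjusted p = 0.00474) between 0 and 7.79 normalized counts in these libraries, a call lost without WT library B (0.0336), WT library C (0.0103), Mfn1-/- library A (0.0106) or Mfn1-/- library B (0.0579) and under 5 other settings, while Wnt6 and Wnt11 were called on no day.

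Most ligands were higher in Mfn2-/- cells at day -2 (7 of 11 higher and 1 lower, where 16.4% and 19.1% of all genes were), and those called include some that were lower in Mfn1-/- cells. Wnt4 held 15.6, 14.0 and 24.5 in WT libraries D, E and F and 670.0, 735 and 904 in Mfn2-/- libraries (log2 fold change 5.37 ± 0.41, adjusted p = 1.60e-12). At day +8 it held 4.75, 10.3 and 12.8 in WT and 1000.2, 927 and 791 in Mfn2-/- libraries (log2 fold change 6.55 ± 0.41, adjusted p = 1.99e-14). No library of either group came near the other group at these days. Wnt11 (chr7:98835112-98855195), a ligand of cell movement that mostly acts without beta-catenin, held 26.3, 18.3 and 20.8 in WT and 425, 418 and 325 in Mfn2-/- libraries at day -2 (log2 fold change 4.10 ± 0.43, adjusted p = 2.32e-09). It held 32.3, 36.4 and 40.4 against 605, 627 and 463 at day +8 (log2 fold change 3.91 ± 0.43, adjusted p = 6.99e-09). On 8.8% of its exon bases Wnt11 overlaps Gm8398 on the other strand.

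Wnt5a and Wnt9a were high in Mfn2-/- cells before differentiation. Wnt5a stood at 70.1, 73.1 and 98.7 in WT and 974, 962 and 942 in Mfn2-/- libraries at day -2 (log2 fold change 3.57 ± 0.55, adjusted p = 3.68e-06). By day +8 WT libraries had reached 793, 779 and 696 and Mfn2-/- libraries stood at 532, 559 and 574, a difference that was not called (-0.44 ± 0.55, adjusted p = 0.527). Wnt9a held 118, 95.7 and 142 in WT and 552, 603 and 463 in Mfn2-/- libraries at day -2 (log2 fold change 2.19 ± 0.31, adjusted p = 6.54e-07). At day +8 its groups were still apart, at 68.4, 77.4 and 68.1 and 131, 118 and 155, but the difference missed the threshold (0.90 ± 0.31, adjusted p = 0.0164). Wnt2b, a beta-catenin ligand, held 7.78, 8.60 and 8.15 in WT and 77.6, 69.7 and 58.4 in Mfn2-/- libraries at day -2 (log2 fold change 2.91 ± 0.46, adjusted p = 3.88e-06) and 7.60, 9.33 and 7.45 against 63.2, 73.5 and 61.9 at day +8 (log2 fold change 2.88 ± 0.46, adjusted p = 4.64e-06).

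Further ligand differences in Mfn2-/- cells concerned Wnt2, Wnt5b, Wnt10b, Wnt6 and Wnt16. At day -2 Wnt2 held 0, 3.22 and 1.81 in WT and 30.8, 28.1 and 11.7 in Mfn2-/- libraries (log2 fold change 3.32 ± 0.59, adjusted p = 2.44e-05), and Wnt5b 8.76, 5.37 and 6.34 and 41.5, 32.6 and 42.5 (log2 fold change 2.36 ± 0.54, adjusted p = 0.000562). Both groups of each gene overlapped at day +8. Wnt10b was lower at day -2, at 217, 189 and 237 in WT and 76.6, 70.7 and 70.1 in Mfn2-/- libraries (log2 fold change -1.55 ± 0.43, adjusted p = 0.00393), although the call ended without WT library D (0.0133), WT library F (0.0173), Mfn2-/- library A (0.0105), Mfn2-/- library B (0.0136) or Mfn2-/- library C (0.0136). At day +8 Wnt6, which like Wnt10b restrains adipogenesis in culture, held 26.6, 26.1 and 14.9 in WT and 89.3, 75.3 and 86.1 in Mfn2-/- libraries (log2 fold change 1.89 ± 0.47, adjusted p = 0.00123), a call that ended without WT library F (0.0121). Wnt16 was lower there, between 0 and 14.9 normalized counts (-2.84 ± 0.66, adjusted p = 0.000664), and its call ended under 1 alternative setting.

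Levels are compared between genes or days on the TMM scale, in which library totals are adjusted by the trimmed mean of log ratios between libraries. Per kilobase of exon, on the TMM scale, the 11 ligands together summed to 313 ± 74.1 in WT libraries A to C at day -2 (mean ± SD, n = 3) and to 127 ± 5.88 in Mfn1-/- cells. The WT ligand sum was 318 ± 30.7 at day +8, while that of the libraries labelled Mfn1-/- was 76.9 ± 14.3. In WT libraries D to F it went from 320.2 ± 49.6 to 254 ± 12.2, and in Mfn2-/- cells from 966 ± 26.1 to 756 ± 55.0. The Mfn2-/- ligand sum was thus the highest and that of the libraries labelled Mfn1-/- the lowest at both days. The leading ligands also differed between the lines. In WT libraries A to C at day -2 Wnt10b made up 36.8% of the mean ligand sum and Wnt9a 23.5%, and at day +8 Wnt5a made up 58.6%. Wnt5b in Mfn1-/- cells at day -2 made up 24.4% and Wnt4 23.2%, and Wnt4 made up 50.9% at day +3. The leading ligands in Mfn2-/- cells at day -2 were Wnt4 with 26.4%, Wnt9a with 23.3%, Wnt5a with 17.6% and Wnt11 with 13.6%, and at day +8 Wnt4 with 37.8% and Wnt11 with 23.9%.

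**Figure D2:**
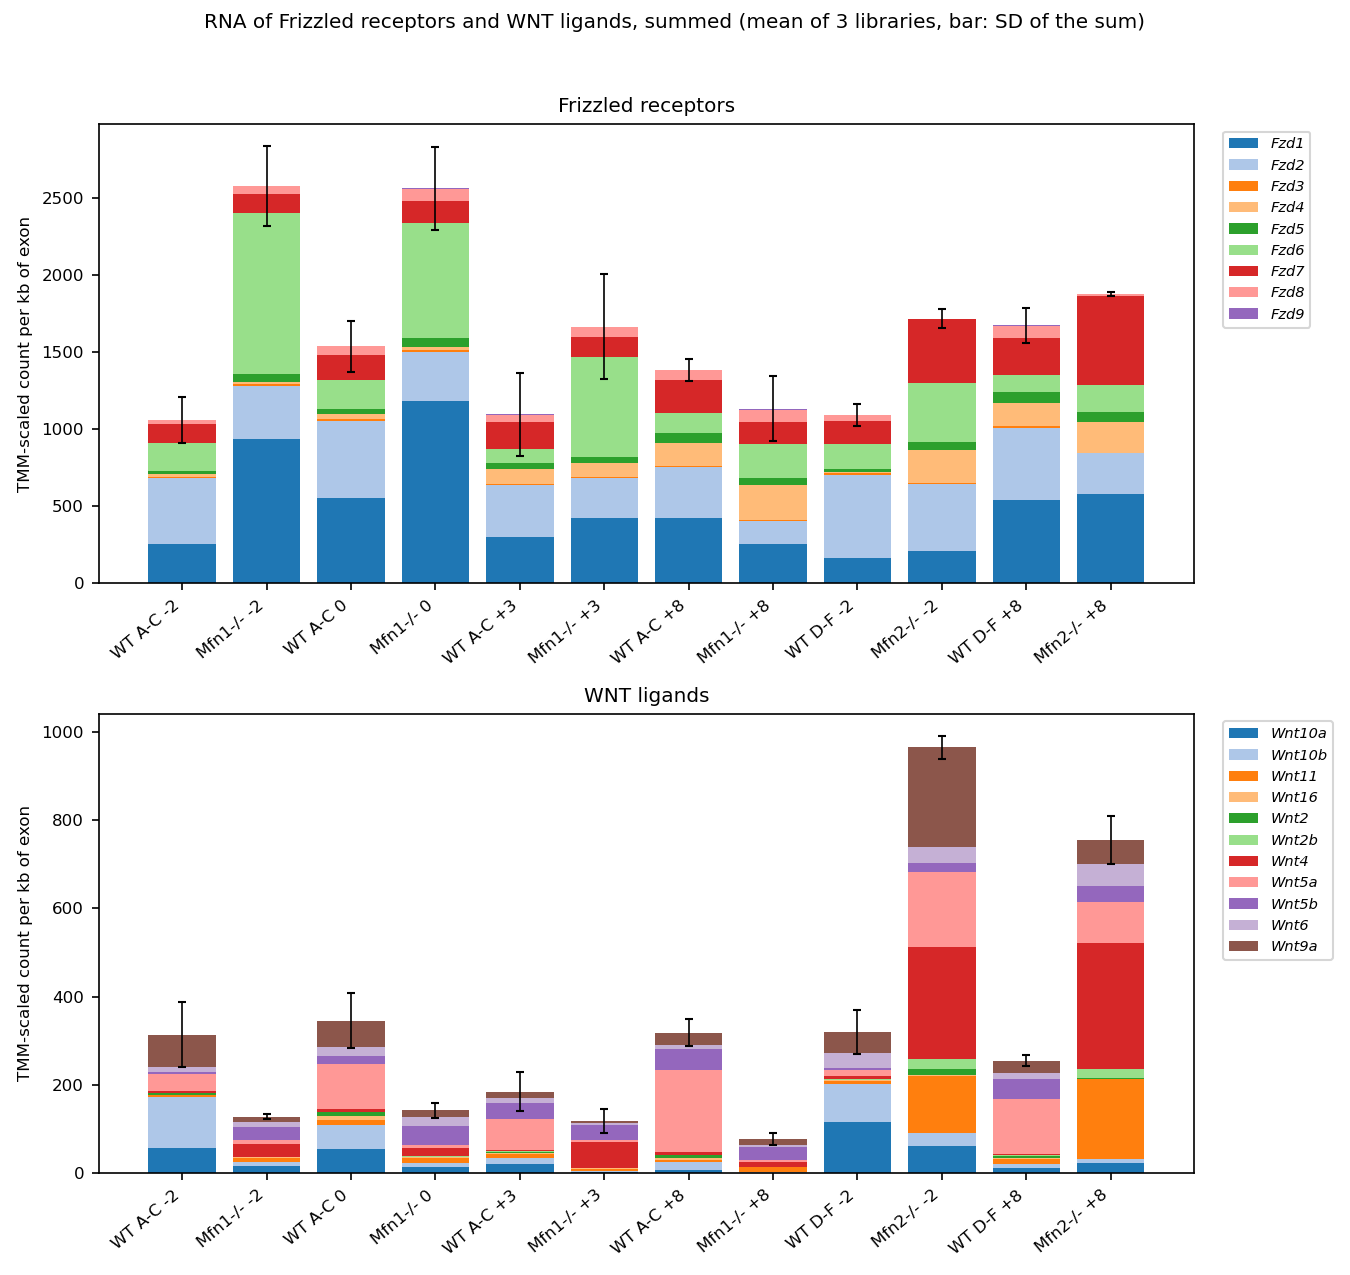
Stacked mean TMM-scaled counts per kilobase of exon (vertical axis) of the Frizzled receptors and of the WNT ligands in the 12 groups, with each gene as 1 colour and a bar of 1 SD of the sum over 3 libraries. The ligand sum of Mfn2-/- cells at day -2 (966 ± 26.1) is above that of WT libraries D to F (320.2 ± 49.6), and that of the libraries labelled Mfn1-/- is below that of WT libraries A to C at each day.

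Wnt4 and Wnt11 were both high in Mfn2-/- cells at both days, and Axin2, the feedback gene described with the inhibitors, was high there too, so the 250 bases before their starts are printed from RefSeq (GRCm38.p6, plus strand). Capitals mark CTTTGAT or its reverse complement ATCAAAG, letters that TCF/LEF factors bind, searched on both strands. For Wnt11 the first of its 2 RefSeq starts is shown. For Wnt4 the RefSeq start lies downstream of the gene start given above (137277489), so its window reaches into the gene as given there. The windows are chr11:108920099-108920348 for Axin2, chr4:137277385-137277634 for Wnt4 and chr7:98834862-98835111 for Wnt11.
Axin2: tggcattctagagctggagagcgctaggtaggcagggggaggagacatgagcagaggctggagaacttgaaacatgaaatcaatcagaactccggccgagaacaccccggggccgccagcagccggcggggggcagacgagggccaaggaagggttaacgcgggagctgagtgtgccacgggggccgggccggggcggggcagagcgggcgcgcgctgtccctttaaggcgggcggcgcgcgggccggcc
Wnt4: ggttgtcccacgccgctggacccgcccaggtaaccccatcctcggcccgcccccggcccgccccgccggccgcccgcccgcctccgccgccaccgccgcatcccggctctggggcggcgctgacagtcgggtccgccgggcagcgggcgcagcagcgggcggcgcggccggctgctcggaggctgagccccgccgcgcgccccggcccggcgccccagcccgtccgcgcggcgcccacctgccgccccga
Wnt11: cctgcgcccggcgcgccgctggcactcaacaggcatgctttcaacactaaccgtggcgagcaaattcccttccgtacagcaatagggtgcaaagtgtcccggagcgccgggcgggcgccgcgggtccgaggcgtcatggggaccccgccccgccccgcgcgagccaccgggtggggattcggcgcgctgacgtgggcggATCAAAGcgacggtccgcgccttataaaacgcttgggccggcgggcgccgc
The motif stood 1 time in the Wnt11 window and 0 times in those of Axin2 and Wnt4, which says only that these letters are not in these 250 bases. Among the 25 WNT genes with a promoter given, which had 34 promoters, 2 genes held it, Wnt11 and Wnt5b. In all, 1053 of 32851 promoters (3.21%) did, a share of promoters and not of genes. A match is no evidence of binding.

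The machinery that releases WNT proteins is represented by Wls and Porcn. Wls, the carrier that takes WNT proteins to the cell surface, stood in WT libraries at 5934, 7252 and 6991 at day +8 and at 2442, 3348 and 3545 in the libraries labelled Mfn1-/- (log2 fold change -1.12 ± 0.14, adjusted p = 8.37e-08). On the other days, and in Mfn2-/- cells, it was not called. Porcn, the enzyme that attaches the lipid, held 367, 413 and 484 in WT and 131, 177 and 200.2 in Mfn1-/- libraries at day 0 (log2 fold change -1.32 ± 0.24, adjusted p = 5.10e-05). Mfn2-/- cells had Porcn at 21.3, 15.4 and 19.1 against 69.1, 73.1 and 90.6 in WT at day -2 (log2 fold change -2.01 ± 0.24, adjusted p = 2.10e-08). At day +8 Porcn had risen in WT libraries D to F to 198, 221 and 201, and Mfn2-/- libraries held 6.54, 11.8 and 12.6 (log2 fold change -4.25 ± 0.24, adjusted p = 1.23e-15). A lower value of Porcn at day +3 in Mfn1-/- cells (-0.79 ± 0.24, adjusted p = 0.00997) lost its call without WT library A (0.0143), WT library B (0.0702), WT library C (0.0107), Mfn1-/- library A (0.0716) or Mfn1-/- library B (0.0183) and under 4 other settings.

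Among the Frizzled receptors, the WNT-binding proteins of the membrane, Fzd6 and Fzd1 led in Mfn1-/- cells. Fzd6 (chr15:39006034-39038188), a receptor of planar cell polarity, held 941, 955 and 1131 in WT and 7142, 5689.6 and 5069.8 in Mfn1-/- libraries at day -2 (log2 fold change 2.55 ± 0.29, adjusted p = 3.84e-08). At day +3 the values were 424, 482 and 511 in WT and 2352, 5043 and 2947 in Mfn1-/- libraries (log2 fold change 2.79 ± 0.29, adjusted p = 7.86e-09). The groups were far apart until day +3, but at day +8 library A labelled Mfn1-/- lay below WT and libraries B and C above it, at 403, 1215 and 1455 against 624, 658 and 564 (0.54 ± 0.29, adjusted p = 0.106). Fzd1, which can signal through beta-catenin, went from higher to lower. It held 1349, 907 and 1401 in WT and 4757, 4024 and 5116 in Mfn1-/- libraries at day -2 (log2 fold change 1.94 ± 0.18, adjusted p = 2.67e-10), and 1831, 1747 and 1547 against 847, 1144 and 1043 at day +8 (log2 fold change -0.76 ± 0.18, adjusted p = 0.000435). The groups did not overlap at either day.

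Fzd5 was also higher in Mfn1-/- cells at day -2, at 338, 317 and 490.2 against 120.1, 130.2 and 209 in WT (log2 fold change 1.33 ± 0.26, adjusted p = 0.000201). Its exons overlap Gm38058 on the other strand over 17.8% of their bases. Fzd8 was higher at day -2 (0.93 ± 0.19, adjusted p = 0.000212), a call that ended under 2 alternative settings. At day +8, 4 of 9 Frizzled receptors were lower in the libraries labelled Mfn1-/- and 0 were higher, where 26.7% of all genes were lower and 23.5% higher. Of these Fzd2 stood at 1223, 1198 and 1125 in WT and 468, 504 and 618 in the knockout (log2 fold change -1.16 ± 0.17, adjusted p = 4.85e-07), and Fzd3 at 138, 143 and 146 and 52.1, 64.4 and 73.8 (log2 fold change -1.17 ± 0.23, adjusted p = 5.75e-05). For both genes the groups were apart. Fzd7 was lower too (-0.61 ± 0.19, adjusted p = 0.00643), a call that ended without WT library B (0.0113), WT library C (0.0394), Mfn1-/- library A (0.0317) or Mfn1-/- library C (0.0137) and under 1 other setting.

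Fzd4 and Fzd7 were high in Mfn2-/- cells and Fzd3 and Fzd8 low. Fzd4, the norrin and WNT receptor that rises in WT adipogenic cultures here, held 37.9, 20.4 and 35.3 in WT and 1089, 1019 and 1098 in Mfn2-/- libraries at day -2 (log2 fold change 5.10 ± 0.44, adjusted p = 8.04e-11). At day +8 WT libraries had come up to 743, 716 and 877, beside 878, 1095 and 1059, and the difference was not called (0.37 ± 0.44, adjusted p = 0.503). Fzd7, a receptor of stem and progenitor cells, held 449.6, 516 and 532 and 1248, 1369 and 1418 at day -2 (log2 fold change 1.43 ± 0.19, adjusted p = 1.69e-07), and 865, 890.0 and 803 and 1918, 2055 and 1971 at day +8 (log2 fold change 1.22 ± 0.19, adjusted p = 2.91e-06). All Mfn2-/- libraries were above all WT libraries at both days. Fzd3, a receptor of axon guidance and planar polarity, was at 9.57, 9.06 and 15.9 against 115, 100 and 124 in WT at day -2 (log2 fold change -3.22 ± 0.23, adjusted p = 2.70e-13) and at 7.63, 10.9 and 9.45 against 123, 101 and 113 at day +8 (log2 fold change -3.46 ± 0.23, adjusted p = 6.72e-14).

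Fzd8, a beta-catenin receptor, was likewise far lower in Mfn2-/- cells, at 17.0, 15.4 and 14.9 against 164, 187 and 155 at day -2 (log2 fold change -3.34 ± 0.19, adjusted p = 8.41e-16) and 66.5, 62.6 and 42.0 against 391, 387 and 350.1 at day +8 (log2 fold change -2.73 ± 0.19, adjusted p = 1.62e-13). Fzd6 was higher at day -2 (1.26 ± 0.29, adjusted p = 0.000617) and missed the threshold at day +8 (0.63 ± 0.29, adjusted p = 0.0718). Fzd5 was higher at day -2 (1.34 ± 0.26, adjusted p = 9.26e-05) and near WT at day +8 (-0.09 ± 0.26, adjusted p = 0.809). Fzd2 was lower at day +8 (-0.84 ± 0.17, adjusted p = 8.90e-05). Fzd1 was called at neither day, and Fzd9, between 0 and 18.1 normalized counts, in none of the 6 comparisons. Summed per kilobase on the TMM scale, the 9 Frizzled receptors stood at 1059 ± 147 in WT libraries A to C and 2581 ± 258 in Mfn1-/- cells at day -2, and at 1384 ± 74.0 and, in the libraries labelled Mfn1-/-, 1131 ± 211 at day +8. Fzd2 held 40.2% of the mean WT sum at day -2, and Fzd6 40.6% of the Mfn1-/- sum.

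Lrp5 and Lrp6, the co-receptors for beta-catenin signalling, parted in Mfn1-/- cells. Lrp5 held 1881, 1990.5 and 2098 in WT and 4085, 4593 and 4413 in Mfn1-/- libraries at day -2 (log2 fold change 1.13 ± 0.14, adjusted p = 2.34e-07). Lrp6 overlapped between the groups at day -2 and was lower at day +8, at 1676, 1958 and 2089 in the libraries labelled Mfn1-/- against 4813, 6642 and 7206 in WT (log2 fold change -1.69 ± 0.22, adjusted p = 1.25e-07). Neither was called in Mfn2-/- cells at day -2 and both were lower at day +8. Lrp5 stood there at 1122, 1197 and 1116 against 1982, 1965 and 1794 in WT (log2 fold change -0.74 ± 0.14, adjusted p = 8.13e-05), and Lrp6 at 1766, 2061 and 2286 against 4469, 4703 and 4335 (log2 fold change -1.15 ± 0.22, adjusted p = 6.76e-05). At days 0 and +3 Lrp5 was higher in Mfn1-/- cells by 0.68 and 0.59 (log2, adjusted p = 0.000406 and 0.00205), where the first call ended under 1 alternative setting and the second without WT library A (0.0286), WT library C (0.0132) or Mfn1-/- library C (0.0122) and under 2 other settings. Lrp6 was lower at day +3 (-0.88 ± 0.22, adjusted p = 0.00247), a call that ended without WT library B (0.0487) or Mfn1-/- library A (0.0275) and under 2 other settings.

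The R-spondins, secreted proteins that keep Frizzled receptors at the cell surface by disarming the ubiquitin ligase Znrf3, were low in Mfn1-/- cells, at no more than 40.9 normalized counts in any library. Rspo2 (chr15:43020794-43170826) held 34.0, 80.2 and 434 in WT libraries A, B and C and 3.61, 0 and 0 in Mfn1-/- libraries at day -2, where it was 215-fold lower [95% counting interval 73.4 to 1044] by reads (adjusted p = 2.39e-07). Its WT libraries spread widely at that day, with C far above A, yet all were above Mfn1-/-. The fold pools the reads of each group and so leans on WT library C, the deepest library with 37011894 reads. At day 0 the values were 204, 562 and 1147 and 1.66, 9.77 and 0 (log2 fold change -7.38 ± 0.76, adjusted p = 5.19e-09). At day +8 WT libraries held 968, 1255 and 947 and the libraries labelled Mfn1-/- 1.45, 1.13 and 0, a level 1324-fold lower [95% counting interval 366 to 10934]. Rspo2 was also nearly absent in Mfn2-/- cells, at 0, 0 and 0 against 26.3, 30.1 and 33.5 in WT at day -2 (at least 29.9-fold lower against 3 reads over the group, adjusted p = 2.79e-06). At day +8 it was at 2.18, 0 and 0 against 568, 538 and 582 in WT, 835-fold lower [95% counting interval 231 to 6901].

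Rspo3 (chr10:29452416-29535867) differed between the lines. The Mfn1-/- cells held 12.0, 2.45 and 5.16 against 285, 94.6 and 166 in WT at day -2 (log2 fold change -4.67 ± 0.68, adjusted p = 3.21e-06), 40.9, 12.6 and 5.76 against 832, 741 and 470.3 at day 0 (log2 fold change -5.40 ± 0.68, adjusted p = 3.09e-07) and 20.0, 9.20 and 2.65 against 643, 791 and 372 at day +3 (log2 fold change -5.96 ± 0.68, adjusted p = 5.50e-08). At day +8 it stood at 24.6, 1.13 and 4.16 against 809, 929.9 and 582 (log2 fold change -6.86 ± 0.68, adjusted p = 1.38e-09). The groups were apart on all 4 days. Rspo3 in Mfn2-/- cells held 96.8, 60.7 and 58.4 against 110.0, 88.1 and 78.8 in WT at day -2, an overlap with no call (-0.38 ± 0.68, adjusted p = 0.685), and 99.1, 49.0 and 95.5 against 665, 661 and 727 at day +8 (log2 fold change -3.12 ± 0.68, adjusted p = 0.000334). WT levels had risen while Mfn2-/- levels had not. On 13.1% of its exon bases Rspo3 overlaps Gm48159 on the other strand. Per kilobase on the TMM scale the 2 R-spondins summed to 82.4 ± 40.1 in WT libraries A to C at day -2 and 470.0 ± 91.3 at day +8, and to 1.98 ± 1.67 and 3.52 ± 4.37 in the libraries labelled Mfn1-/-.

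**Figure D3:**
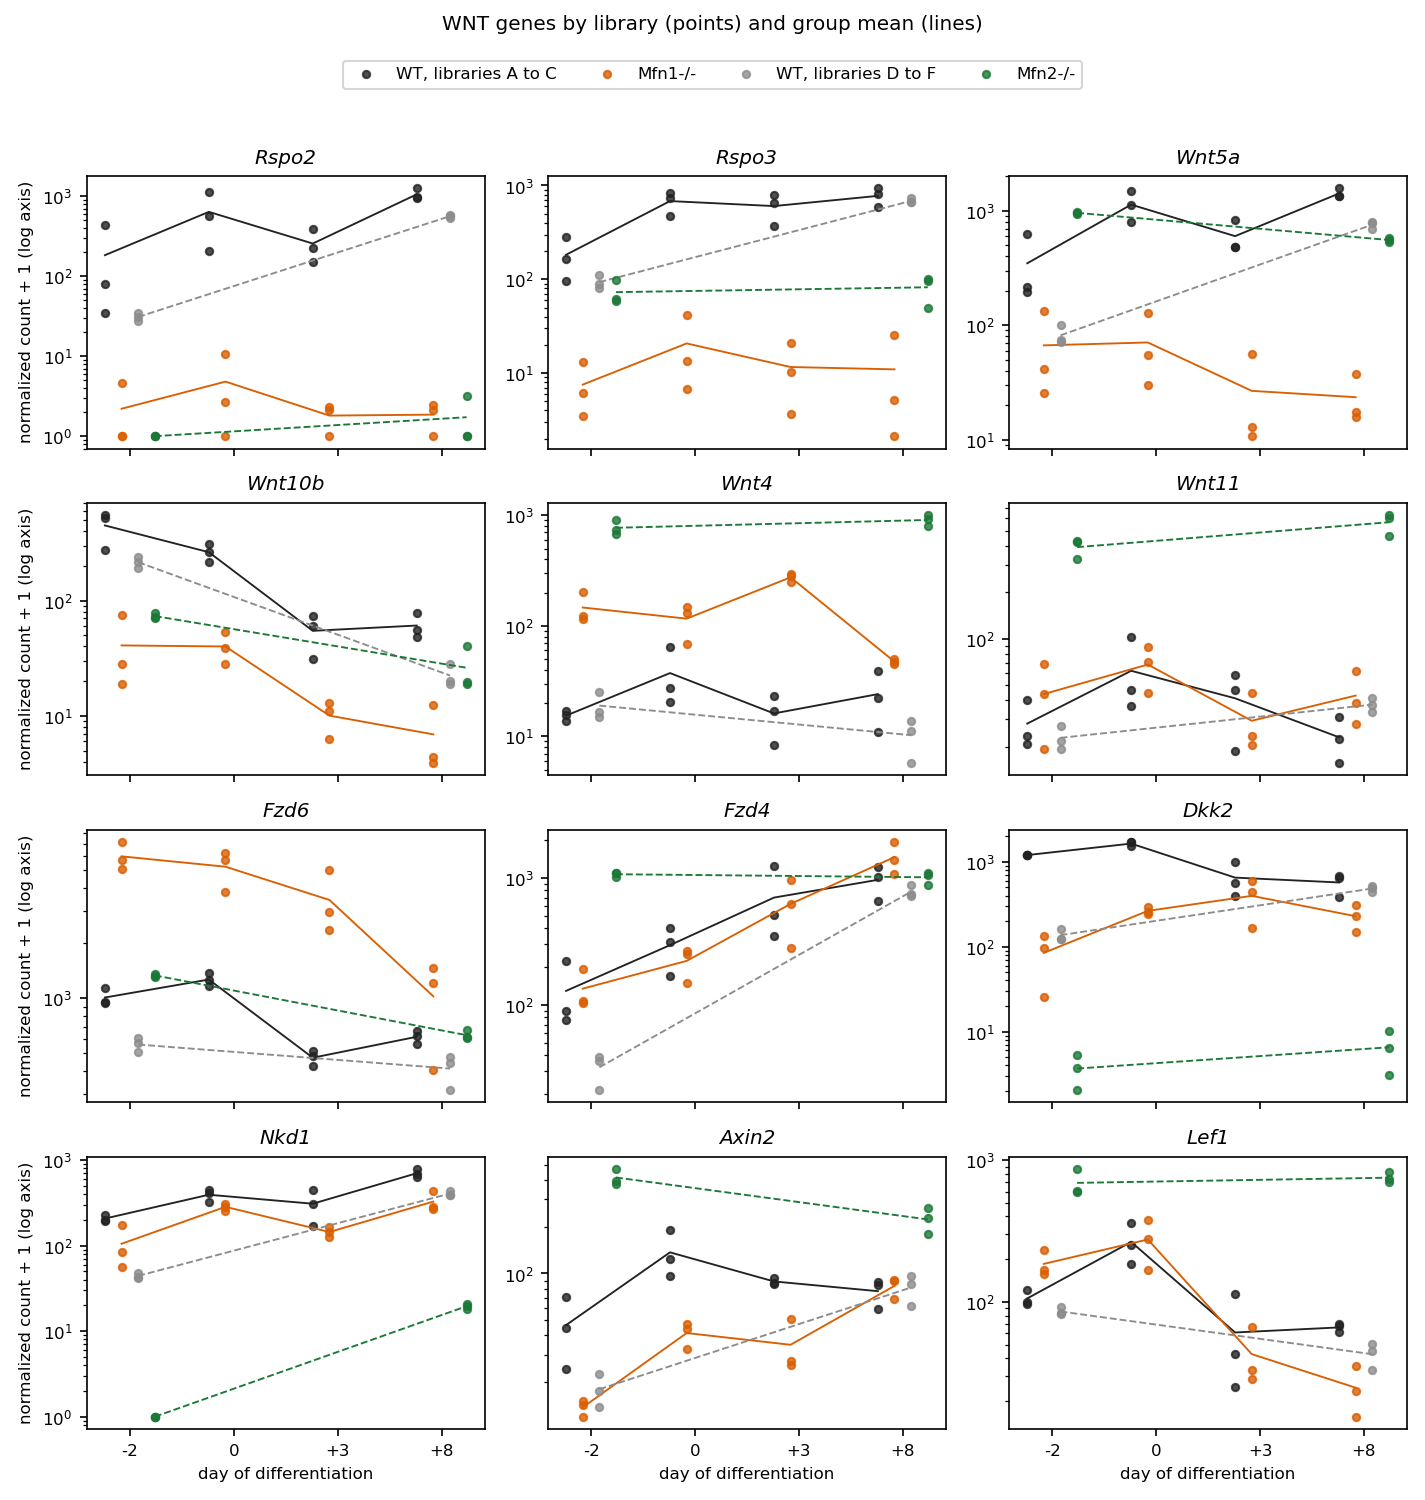
Normalized count + 1 (vertical log axis) of 12 WNT genes by day of differentiation (horizontal axis), with points for the 36 libraries and lines through the group means of WT libraries A to C, Mfn1-/-, WT libraries D to F and Mfn2-/-. Rspo2 lies at 0 to 9.77 in all knockout libraries, while Wnt4 and Wnt11 are highest in Mfn2-/- cells.

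Of the secreted antagonists, which bind WNT proteins or the co-receptors outside the cell, Dkk2 was lower in both lines at day -2. Dkk2, a ligand of Lrp5 and Lrp6, held 1210.1, 1193 and 1187 in WT and 131, 24.5 and 95.5 in Mfn1-/- libraries at day -2 (log2 fold change -4.12 ± 0.48, adjusted p = 7.54e-08), and 1687, 1511 and 1702 against 239, 257 and 292 at day 0 (log2 fold change -2.63 ± 0.48, adjusted p = 8.02e-05). At day +3 the groups overlapped and Dkk2 was not called. Dkk2 in Mfn2-/- cells held 1.06, 2.72 and 4.25 against 122, 124 and 162 in WT at day -2 (log2 fold change -5.31 ± 0.48, adjusted p = 1.86e-10) and 5.45, 9.08 and 2.10 against 491, 517 and 441 at day +8 (log2 fold change -6.36 ± 0.48, adjusted p = 5.19e-12). Dkk3, a divergent member of the family, was lower at day +8 in both lines, at 1.45, 15.8 and 12.5 against 235, 197 and 92.0 in the libraries labelled Mfn1-/- (log2 fold change -4.31 ± 0.58, adjusted p = 2.19e-07) and at 1.09, 0 and 1.05 against 50.3, 79.3 and 31.9 in Mfn2-/- cells, 81.5-fold lower [95% counting interval 22.2 to 678]. At day -2 it was lower in Mfn2-/- cells between 2.13 and 18.5 normalized counts (-1.87 ± 0.58, adjusted p = 0.00901), a call that ended without WT library D (0.0456), WT library E (0.0268), Mfn2-/- library A (0.021), Mfn2-/- library B (0.0166) or Mfn2-/- library C (0.0388) and under 3 other settings.

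Sfrp2, a secreted WNT binder of fibroblasts, was higher in Mfn1-/- cells until day +3. It held 99.9, 129 and 238 in WT and 516, 338 and 1467 in Mfn1-/- libraries at day -2 (log2 fold change 2.12 ± 0.51, adjusted p = 0.00194), 398, 549.7 and 695 and 834, 2448 and 4477 at day 0 (log2 fold change 1.97 ± 0.51, adjusted p = 0.00376) and 575, 647 and 293 and 3096, 6391 and 1364 at day +3 (log2 fold change 2.65 ± 0.51, adjusted p = 0.000183). The Mfn1-/- libraries were above all WT libraries on these days but varied by several-fold among themselves. The day -2 call ended without WT library A (0.0163), WT library B (0.0103) or Mfn1-/- library C (0.0283) and under 1 other setting, that of day 0 without WT library A (0.0232), WT library B (0.012), Mfn1-/- library B (0.0188) or Mfn1-/- library C (0.0479) and under 1 other setting, and that of day +3 under 1 alternative setting. At day +8 Sfrp2 was lower in every library labelled Mfn1-/- (745, 620.3 and 1279 against 1469, 1728 and 1332), with no call (-0.84 ± 0.51, adjusted p = 0.157). On 16.1% of its exon bases it overlaps Gm26771 on the other strand. Sfrp2 was not called in Mfn2-/- cells (1.12 ± 0.51, adjusted p = 0.0765 at day -2, -0.69 ± 0.51, adjusted p = 0.273 at day +8).

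Sfrp1, which also binds WNT proteins, was lower in Mfn2-/- cells, at 2.13, 4.53 and 2.13 against 40.9, 25.8 and 48.9 in WT at day -2 (log2 fold change -3.34 ± 0.46, adjusted p = 6.72e-07) and 148, 93.5 and 156 against 535, 563 and 492 at day +8 (log2 fold change -2.02 ± 0.46, adjusted p = 0.000599). In the day +8 libraries labelled Mfn1-/- it held 464, 319.8 and 293 against 978, 1419 and 1837 (log2 fold change -1.96 ± 0.46, adjusted p = 0.000631), a call that ended under 1 alternative setting. Sfrp4 was higher in Mfn2-/- cells at day -2, at 41.5, 43.5 and 36.1 against 0.973, 0 and 1.81 in WT, 41.4-fold higher [95% counting interval 13.8 to 203]. At day +8 in Mfn2-/- cells (2.06 ± 0.63, adjusted p = 0.00743) and at day -2 in Mfn1-/- cells (2.59 ± 0.63, adjusted p = 0.00185) it was higher as well, although the first call ended without WT library D (0.067), WT library F (0.0106), Mfn2-/- library A (0.0197) or Mfn2-/- library B (0.0414) and under 2 other settings and the second without WT library A (0.0117), WT library B (0.0316) or Mfn1-/- library C (0.0315) and under 3 other settings.

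Among the inhibitors of the membrane, Apcdd1 and Kremen1 were lower in Mfn1-/- cells on all 4 days under every alternative tried. Apcdd1, a glycoprotein that binds WNT and Lrp5, held 1317, 1333 and 955 in WT and 287, 297 and 276 in Mfn1-/- libraries at day -2 (log2 fold change -2.05 ± 0.15, adjusted p = 4.32e-12), and 551, 633 and 465 against 81.1, 82.5 and 107 at day +8 (log2 fold change -2.59 ± 0.15, adjusted p = 1.38e-14). Kremen1, a Dickkopf receptor that removes Lrp6 from the surface, held 1056, 984 and 1031 and 352, 365 and 453 at day -2 (log2 fold change -1.40 ± 0.13, adjusted p = 2.39e-10), and 882, 779 and 937 and 374, 374 and 405 at day +8 (log2 fold change -1.17 ± 0.13, adjusted p = 3.64e-09). No values of the WT and Mfn1-/- groups overlapped for either gene. Apcdd1 in Mfn2-/- cells at day -2 stood at 268, 255 and 299.6 against 753, 767 and 745 in WT (log2 fold change -1.46 ± 0.15, adjusted p = 1.99e-09), and Kremen1 at 145, 168 and 168 against 419, 428 and 410.3 (log2 fold change -1.39 ± 0.13, adjusted p = 8.61e-11). At day +8 the order of Apcdd1 was turned round, at 664, 683 and 614 in Mfn2-/- cells against 475, 451 and 401 in WT (log2 fold change 0.56 ± 0.15, adjusted p = 0.00282), a call that ended without WT library F (0.02), Mfn2-/- library A (0.011) or Mfn2-/- library B (0.0141). Kremen1 was still lower (-0.49 ± 0.13, adjusted p = 0.00181), a call that ended without WT library D (0.0149) or Mfn2-/- library B (0.0136). Znrf3, the ligase that removes Frizzled receptors, was called only in Mfn2-/- cells at day -2 among these 6 comparisons, at 321, 277 and 322 against 164, 134 and 130.4 (log2 fold change 1.10 ± 0.21, adjusted p = 4.70e-05).

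Axin2, a scaffold of the destruction complex and a widely used feedback target of beta-catenin (chr11:108920349-108950783), moved in opposite directions in the lines. In Mfn1-/- cells it was lower, with 13.2, 11.03 and 14.2 against 70.1, 23.4 and 43.4 in WT at day -2 (log2 fold change -1.63 ± 0.31, adjusted p = 0.000106) and 46.4, 43.3 and 31.7 against 189, 123 and 95.1 at day 0 (log2 fold change -1.68 ± 0.31, adjusted p = 6.86e-05). By day +8 its groups overlapped, at 86.9, 57.8 and 83.3 in WT and 68.1, 90.4 and 88.3 in the libraries labelled Mfn1-/-. In Mfn2-/- cells it was higher, with 394, 376 and 469 against 16.5, 12.9 and 21.7 in WT at day -2 (log2 fold change 4.54 ± 0.31, adjusted p = 1.01e-13) and 227, 261 and 177 against 84.5, 60.6 and 95.8 at day +8 (log2 fold change 1.46 ± 0.31, adjusted p = 0.000209). Neither day showed an overlap. The day -2 call in Mfn1-/- cells ended under 1 alternative setting (adjusted p = 0.0132 with no library of another group), and that of day +3 (-1.42 ± 0.31, adjusted p = 0.000538) under 1 alternative setting. On 3.8% of its exon bases Axin2 overlaps Gm11670 on the other strand.

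Axin1, the constitutive scaffold, held 2381, 2477 and 2183 in WT and 1512, 1515 and 1502 in Mfn1-/- libraries at day -2 (log2 fold change -0.63 ± 0.12, adjusted p = 0.000176), and 2674, 2635 and 2646 against 1782, 1600.2 and 1867 at day 0 (log2 fold change -0.60 ± 0.12, adjusted p = 0.000321). Its smaller differences at day +3 (-0.49 ± 0.12, adjusted p = 0.00272) and day +8 (-0.61 ± 0.12, adjusted p = 9.82e-05) were called too, but the first ended without WT library C (0.0244), Mfn1-/- library A (0.0251) or Mfn1-/- library B (0.0111) and under 2 other settings and the second under 2 alternative settings. In Mfn2-/- cells it was not called at either day. Nkd1 and Nkd2, feedback inhibitors that bind Dishevelled, were lower in Mfn2-/- cells. Nkd1 held 0, 0 and 0 against 40.9, 41.9 and 47.1 in WT at day -2 (at least 43.2-fold lower against 3 reads over the group, adjusted p = 1.13e-16), and 19.6, 17.2 and 18.9 against 435, 395 and 387 at day +8 (log2 fold change -4.38 ± 0.28, adjusted p = 3.39e-14). Nkd2 held 5.45, 8.17 and 5.25 against 170.0, 165 and 116 at day +8 (log2 fold change -4.38 ± 0.47, adjusted p = 3.55e-09). The groups of both genes were apart.

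Nkd2 was lower in Mfn1-/- cells from day +3, at 139, 147 and 89.4 against 723, 699 and 678 in WT (log2 fold change -2.51 ± 0.47, adjusted p = 8.63e-05), and at 36.2, 74.6 and 95.6 against 365, 326 and 638 at day +8 (log2 fold change -2.71 ± 0.47, adjusted p = 1.05e-05). Before that its groups overlapped. Nkd1 was lower at days -2 (-1.14 ± 0.28, adjusted p = 0.00198), +3 (-0.999 ± 0.28, adjusted p = 0.00609) and +8 (-1.13 ± 0.28, adjusted p = 0.000896). At day +8 it held 686, 788 and 630.0 in WT and 430.2, 281 and 268 in the libraries labelled Mfn1-/-. The Nkd1 call of day -2 ended without WT library A (0.0118), Mfn1-/- library A (0.0377) or Mfn1-/- library B (0.0116) and under 4 other settings, that of day +3 without WT library A (0.0227), WT library B (0.0816), Mfn1-/- library B (0.0169) or Mfn1-/- library C (0.0271) and under 3 other settings, and that of day +8 under 1 alternative setting. At day +3 same-lettered libraries deviated together, and within these pairs the adjusted p of Nkd1 was 0.0227.

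Beta-catenin itself, Ctnnb1, differed by less than 1 on the log2 scale in all 6 comparisons. It held 12299, 12174 and 12862 in WT and 23749, 22273 and 20003 in Mfn1-/- libraries at day -2 (log2 fold change 0.82 ± 0.14, adjusted p = 3.39e-05). Ctnnb1 in Mfn2-/- cells held 5755, 5880.1 and 5658 against 9191, 9235 and 8136 in WT at day +8 (log2 fold change -0.62 ± 0.14, adjusted p = 0.000582). All Mfn1-/- libraries were above WT in the first comparison and all Mfn2-/- libraries below it in the second. It was higher in Mfn1-/- cells at day 0 (0.63 ± 0.14, adjusted p = 0.000833), lower in the day +8 libraries labelled Mfn1-/- (-0.50 ± 0.14, adjusted p = 0.00296) and lower in Mfn2-/- cells at day -2 (-0.49 ± 0.14, adjusted p = 0.00548). The first of these 3 calls ended under 1 alternative setting, the second without WT library B (0.0217) or Mfn1-/- library A (0.0854) and under 2 other settings and the third without WT library D (0.0157), WT library E (0.0147), WT library F (0.0199), Mfn2-/- library A (0.0171), Mfn2-/- library B (0.016) or Mfn2-/- library C (0.0168) and under 1 other setting. On 14.6% of its exon bases Ctnnb1 overlaps Ulk4 on the other strand.

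Lef1 and Tcf7, TCF/LEF factors that are themselves often targets of the pathway, were high in Mfn2-/- cells. Lef1 held 607, 596 and 865 against 80.8, 90.3 and 82.4 in WT at day -2 (log2 fold change 2.99 ± 0.38, adjusted p = 7.70e-08) and 699, 822 and 728 against 49.4, 43.8 and 31.9 at day +8 (log2 fold change 4.16 ± 0.38, adjusted p = 1.15e-10). Tcf7 held 317, 325 and 347 against 165, 144 and 143 at day -2 (log2 fold change 1.13 ± 0.30, adjusted p = 0.00218) and 635, 712 and 604 against 69.3, 70.9 and 53.2 at day +8 (log2 fold change 3.32 ± 0.30, adjusted p = 7.45e-11). Every Mfn2-/- library was above every WT library. Tcf7 was higher in Mfn1-/- cells at day -2, at 571, 517 and 559 against 286, 230.4 and 237 (log2 fold change 1.13 ± 0.30, adjusted p = 0.00337), a call that ended without WT library B (0.0171), WT library C (0.0135), Mfn1-/- library A (0.0133) or Mfn1-/- library C (0.013). Lef1 was lower in the day +8 libraries labelled Mfn1-/-, at 14.5, 22.6 and 34.3 against 66.1, 68.9 and 60.0 (log2 fold change -1.49 ± 0.38, adjusted p = 0.00109), a call that ended without Mfn1-/- library A (0.015). On 13.8% of its exon bases Lef1 overlaps Gm43352 on the other strand.

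Tcf7l1, mostly a repressor of WNT targets, was higher in Mfn1-/- cells and lower in Mfn2-/- cells. It held 1079, 1174 and 1363 in WT and 2065, 2435 and 2343 in Mfn1-/- libraries at day -2 (log2 fold change 0.92 ± 0.14, adjusted p = 7.71e-06). Tcf7l1 in Mfn2-/- cells held 267, 247 and 265 against 463, 421 and 490.0 in WT at day -2 (log2 fold change -0.82 ± 0.14, adjusted p = 2.35e-05) and 406, 386 and 431 against 716, 681 and 602 at day +8 (log2 fold change -0.70 ± 0.14, adjusted p = 0.000156). Its groups were apart at these days. The small difference at day +8 in the libraries labelled Mfn1-/- (0.53 ± 0.14, adjusted p = 0.00214) lost its call without WT library C (0.0359) or Mfn1-/- library C (0.0141) and under 2 other settings. Tcf7l2, the factor of this family with many adult roles, was lower in Mfn1-/- cells at day 0, at 363, 433 and 337 against 697, 768 and 816 (log2 fold change -1.01 ± 0.15, adjusted p = 2.17e-06), and in Mfn2-/- cells at day +8, at 146, 151 and 137 against 383, 378 and 321 (log2 fold change -1.31 ± 0.15, adjusted p = 8.93e-09). Its calls at day -2 (-0.56 ± 0.15, adjusted p = 0.00333) and day +3 (-0.80 ± 0.15, adjusted p = 6.61e-05) in Mfn1-/- cells ended without WT library C (0.025) or Mfn1-/- library A (0.0221) and under 1 other setting and under 2 alternative settings.

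In WT cells the course of differentiation raised most WNT genes that changed. From day -2 to day +8, 21 of 43 were called in WT libraries A to C (17 higher and 4 lower, where 8.04% and 7.29% of all genes were), beside 15.3% of all genes. In WT libraries D to F there were 25 (21 higher and 4 lower, where 12.8% and 12.5% of all genes were), beside 25.4%. The 2 WT sets shared 17 that rose and 3 that fell, 46.5% of the 43, where 12.1% of all genes changed in 1 direction in both. Values between days are on the TMM scale. Sfrp1 rose by 3.15 ± 0.46 (log2, adjusted p = 1.14e-05) in WT libraries A to C and by 3.69 ± 0.46 (adjusted p = 4.36e-07) in D to F. Sfrp2 rose by 3.59 and 2.83, Sfrp4 by 4.12 and 3.08, Fzd4 by 3.27 and 4.54, Wnt5b by 3.04 and 3.58 and Nkd1 by 1.99 and 3.10. All of these calls held under every alternative. Wnt10a and Wnt10b fell, with log2 changes of -2.84 and -3.38 for the former and -2.62 and -3.41 for the latter.

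Wnt5a, Rspo2, Rspo3 and Nkd2 rose in WT libraries D to F by 3.12, 4.09, 2.78 and 4.11, calls that held under every alternative. In WT libraries A to C they rose as well, by 2.47, 3.52, 2.43 and 2.48, but these calls were less firm. That of Wnt5a ended without WT library A of day -2 (0.0136) or WT library B of day -2 (0.012), that of Rspo2 without WT library A of day -2 (0.0128) and under 2 other settings, that of Rspo3 without WT library B of day -2 (0.0594), WT library C of day -2 (0.0182), WT library A of day +8 (0.0246), WT library B of day +8 (0.0308) or WT library C of day +8 (0.0144) and under 2 other settings and that of Nkd2 under 2 alternative settings. Axin2 rose (2.08) and Tcf7 fell (-1.34) in WT libraries D to F, whereas in A to C the changes were 1.06 (adjusted p = 0.0103) and -0.88 (adjusted p = 0.0262).

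**Figure D4:**
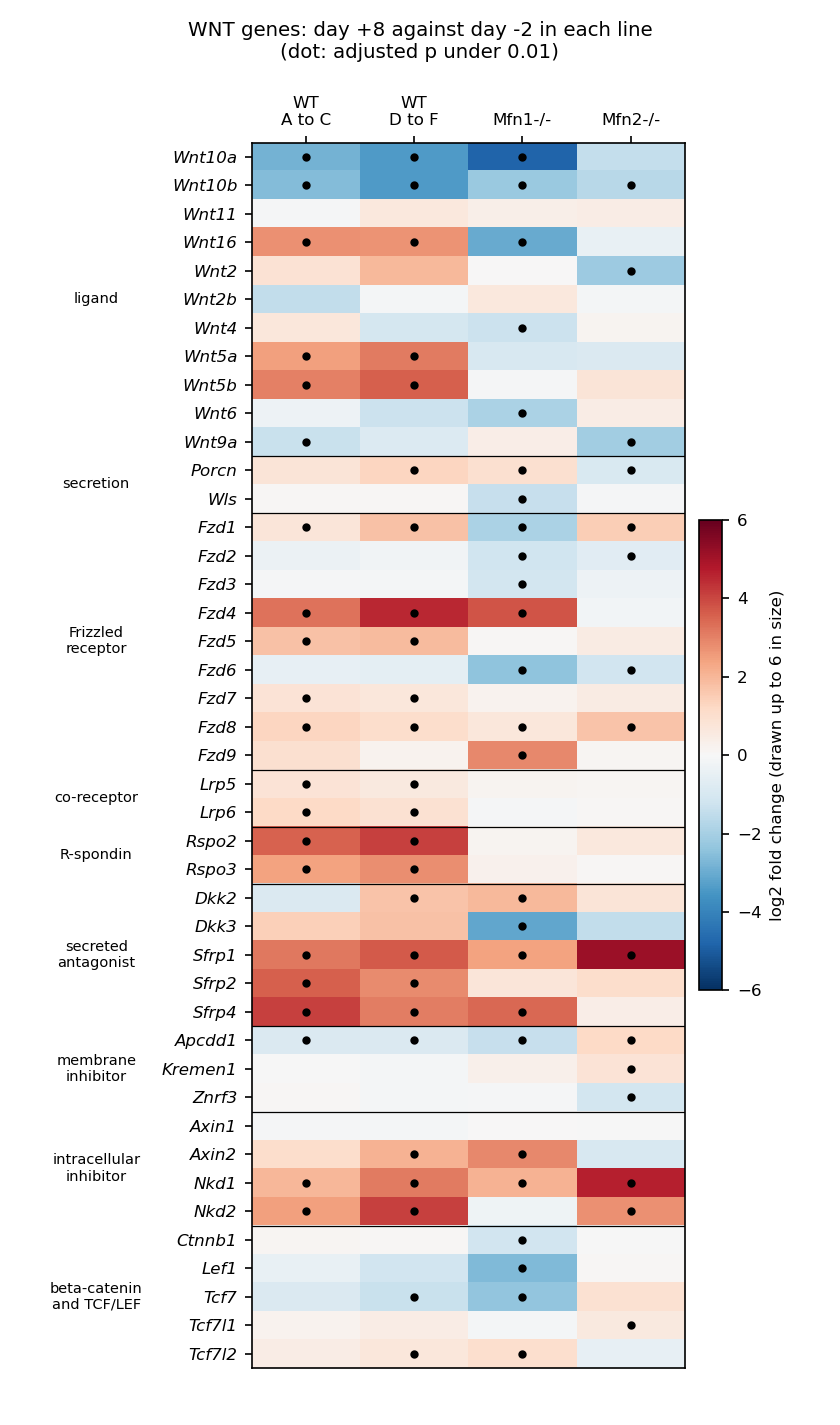
Log2 change from day -2 to day +8 (colour, log2(TMM-scaled count + 1), drawn up to 6 in size) of the 43 WNT genes (rows, by role) in WT libraries A to C and D to F, the libraries labelled Mfn1-/- and Mfn2-/- cells (columns), with a dot where the adjusted p was under 0.01. Fzd8, Nkd1 and Sfrp1 rose in all 4 columns, and Wnt10b fell in all 4.

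The knockout lines took other courses. From day -2 to day +8, 25 of 43 were called in the libraries labelled Mfn1-/- (10 higher and 15 lower, where 20.8% and 22.4% of all genes were), beside 43.2% of all genes. The day +8 libraries of this comparison are those in which Mfn1 RNA overlapped WT. In Mfn2-/- cells there were 15 (8 higher and 7 lower, where 9.52% and 8.08% of all genes were), beside 17.6%. Fzd8, Nkd1 and Sfrp1 rose and Wnt10b fell in all 4 sets, 9.3% of the 43, where 1.83% of all genes changed in 1 direction in all 4. The Fzd8 call in the libraries labelled Mfn1-/- ended without Mfn1-/- library A of day -2 (0.0125), Mfn1-/- library B of day -2 (0.0507) or Mfn1-/- library B of day +8 (0.0272) and under 4 other settings, and the Wnt10b calls ended under 1 alternative setting in Mfn1-/- and without Mfn2-/- library A of day -2 (0.0171), Mfn2-/- library B of day -2 (0.0134), Mfn2-/- library C of day -2 (0.0125), Mfn2-/- library A of day +8 (0.0253) or Mfn2-/- library C of day +8 (0.027) in Mfn2-/- cells. In the libraries labelled Mfn1-/- the receptors Fzd1 (-1.89 ± 0.17, adjusted p = 2.30e-10) and Fzd6 (-2.42 ± 0.29, adjusted p = 4.92e-08) fell. Lef1 (-2.66 ± 0.37, adjusted p = 5.61e-07), Tcf7 (-2.36 ± 0.29, adjusted p = 7.42e-08) and Wls (-1.40 ± 0.14, adjusted p = 1.76e-09) fell too, and Axin2 (2.87 ± 0.31, adjusted p = 4.00e-09) and Fzd4 (3.76 ± 0.44, adjusted p = 4.25e-08) rose. In Mfn2-/- cells Wnt9a fell (-2.07 ± 0.31, adjusted p = 6.80e-06), Znrf3 fell (-1.12 ± 0.21, adjusted p = 0.000106), and Apcdd1 rose (1.18 ± 0.16, adjusted p = 9.34e-07).

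The change of the knockout effect from day -2 to day +8 was tested as an interaction. It was called for 22 of 43 WNT genes in the libraries labelled Mfn1-/- (4 higher and 18 lower, where 12% and 14.7% of all genes were), beside 26.7% of all genes. It was called for 13 in Mfn2-/- cells (3 higher and 10 lower, where 7.16% and 8.34% of all genes were), beside 15.5%. In the libraries labelled Mfn1-/- Wnt16 (-5.88 ± 0.94, adjusted p = 1.30e-05), Fzd1 (-2.71 ± 0.25, adjusted p = 2.41e-09) and Ctnnb1 (-1.32 ± 0.20, adjusted p = 6.50e-06) had effects called in opposite directions at these days. Dkk3 (-4.64 ± 0.82, adjusted p = 5.34e-05), Wnt5b (-3.20 ± 0.76, adjusted p = 0.00141) and Sfrp2 (-2.96 ± 0.72, adjusted p = 0.00198) also moved downwards relative to WT. In Mfn2-/- cells the effect on Fzd4 (-4.72 ± 0.62, adjusted p = 2.18e-06), Wnt5a (-4.02 ± 0.78, adjusted p = 0.000309) and Axin2 (-3.08 ± 0.44, adjusted p = 3.95e-06) fell, while that on Tcf7 (2.20 ± 0.42, adjusted p = 0.000219) and Apcdd1 (2.02 ± 0.22, adjusted p = 4.59e-08) rose. Each of these interactions held under every alternative.

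Between days 0 and +3, the first days with the cocktail, 9 of 43 fell in WT libraries A to C and 0 rose, where 11.4% of all genes were called (7.34% fell and 4.03% rose). Same-lettered WT libraries of these days deviated together, and with the replicate letter as a block 5 were called. Apcdd1 went from 1464, 928 and 1041 to 456, 511 and 439 TMM-scaled counts (log2 fold change -1.26 ± 0.16, adjusted p = 8.32e-07), and Wnt9a from 294, 164 and 128 to 44.6, 44.4 and 44.4 (log2 fold change -2.02 ± 0.31, adjusted p = 2.01e-05). Both held under every alternative. Mfn1-/- cells had 11 called (2 higher and 9 lower, where 8.71% and 9.02% of all genes were), beside 17.7%. Wnt10a (-3.89 ± 0.48, adjusted p = 9.27e-07), Wnt16 (-3.15 ± 0.69, adjusted p = 0.00114), Lef1 (-2.29 ± 0.37, adjusted p = 4.76e-05) and Fzd1 (-1.50 ± 0.17, adjusted p = 3.67e-07) fell there under every alternative. Wnt4 rose (1.72 ± 0.41, adjusted p = 0.00231), a call that ended without Mfn1-/- library A of day 0 (0.0277). Between days -2 and 0, before the cocktail, 6 rose in WT libraries A to C and 0 fell, where 2.86% of all genes were called (2.27% rose and 0.588% fell), and Fzd8 alone held under every alternative (1.01 ± 0.18, adjusted p = 0.000672). For the same days in Mfn1-/- cells limma called 0 of 43, beside 0.112% of all genes, with 10 at an unadjusted p under 0.05 and 2 called by DESeq2.

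Both knockout lines differed from their own WT libraries in many of the same genes, but often not in the same direction. At day -2, 20 of 43 WNT genes were called in both lines (46.5%, beside 12.7% of all genes). Of these, 12 went the same way (60%, beside 80.8% of all genes called in both) and 8 opposite ways. Fzd5, Fzd6, Sfrp4, Tcf7, Wnt4 and Wnt5b were higher in both lines and Apcdd1, Dkk2, Kremen1, Nkd1, Rspo2 and Wnt10b lower in both. Axin2, Wnt2, Wnt2b, Wnt5a and Wnt9a were lower in Mfn1-/- and higher in Mfn2-/- cells, and Ctnnb1, Fzd8 and Tcf7l1 the reverse. At day +8, 16 were called in both Mfn2-/- cells and the libraries labelled Mfn1-/- (37.2%, beside 22.3% of all genes), 12 of them lower in both and 4 in opposite directions (75% in the same direction, beside 69.8% of all genes called in both).

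The difference between the Mfn1-/- and Mfn2-/- effects was itself tested. It was called for 22 of 43 at day -2 (9 higher and 13 lower, where 12.3% and 8.61% of all genes were), beside 20.9% of all genes. The same test called 25 at day +8 (8 higher and 17 lower, where 18.9% and 18.1% of all genes were), beside 37% of all genes. At day -2 it was -6.17 ± 0.44, adjusted p = 9.18e-13 for Axin2, -6.10 ± 0.78, adjusted p = 3.77e-07 for Wnt5a and -4.85 ± 0.44, adjusted p = 2.60e-10 for Wnt9a, all in favour of Mfn2-/- cells. It was 4.27 ± 0.26, adjusted p = 4.09e-14 for Fzd8 and 1.74 ± 0.21, adjusted p = 5.02e-08 for Tcf7l1, in favour of Mfn1-/- cells. The receptor Fzd4 differed by -4.93 ± 0.62, adjusted p = 3.26e-07, Wnt11 by -3.59 ± 0.61, adjusted p = 2.79e-05 and Rspo3 by -4.29 ± 0.96, adjusted p = 0.000877. At day +8 Lef1 (-5.65 ± 0.53, adjusted p = 4.33e-10), Wnt4 (-5.39 ± 0.58, adjusted p = 5.36e-09) and Wnt5a (-5.58 ± 0.78, adjusted p = 9.68e-07) were lower, and Fzd3 (2.30 ± 0.32, adjusted p = 6.91e-07) and Porcn (3.79 ± 0.33, adjusted p = 9.79e-11) higher, in the libraries labelled Mfn1-/- than in Mfn2-/- cells relative to WT. All of these were called under every alternative.

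**Figure D5:**
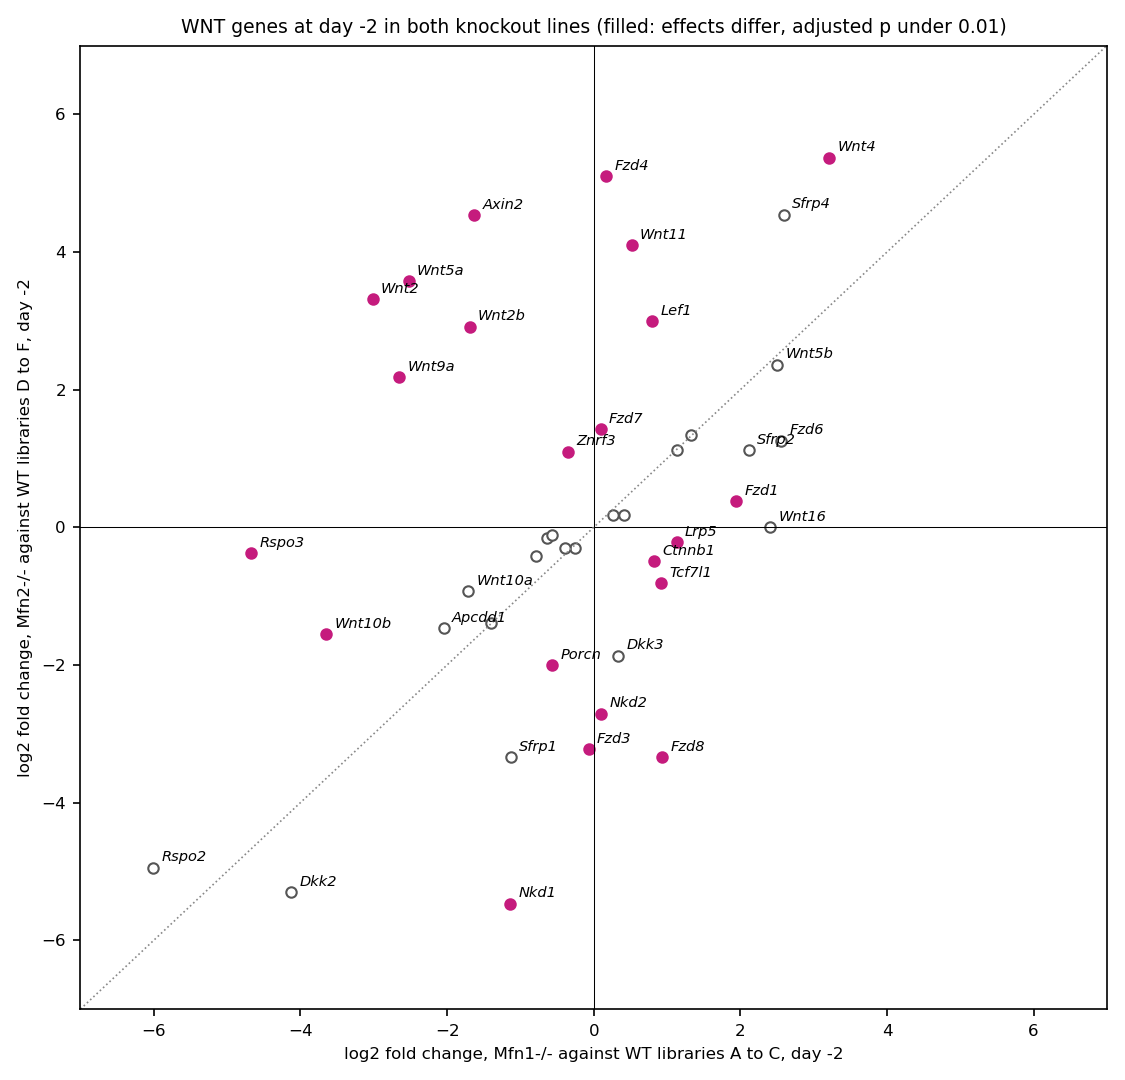
Log2 fold change at day -2 in Mfn1-/- cells (horizontal axis) against that in Mfn2-/- cells (vertical axis) for the 43 WNT genes, each relative to its own WT libraries, filled where the 2 effects differed at an adjusted p under 0.01. Axin2, at -1.63 and 4.54, and Wnt5a, at -2.53 and 3.57, lie in the upper left, and Rspo2 in the lower left.

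The 2 WT sets carry the same line and day in their labels, yet were not equal. At day -2, 9 of 43 WNT genes differed between WT libraries D to F and A to C (1 higher and 8 lower, where 10.6% and 9.84% of all genes were), beside 20.4% of all genes. At day +8 there were 3 (1 higher and 2 lower, where 11.5% and 9% of all genes were), beside 20.5%. Dkk2 held 1058, 1044 and 1033 TMM-scaled counts in A to C and 170.0, 171 and 224 in D to F at day -2 (log2 fold change -2.48 ± 0.49, adjusted p = 0.00021). The lower Dkk2 of Mfn1-/- cells at day -2 was also called against all 6 WT libraries of that day. Nkd1 (-1.57 ± 0.28, adjusted p = 4.44e-05), Kremen1 (-0.62 ± 0.12, adjusted p = 0.000182), Tcf7l1 (-0.72 ± 0.14, adjusted p = 0.000201) and Tcf7l2 (-0.66 ± 0.14, adjusted p = 0.000592) were lower in D to F as well.

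Further genes of the pathway, taken from lists of known function, were called in both directions at day -2. Of 22 tested genes of the destruction complex and its transducers, 4 were higher and 2 lower in Mfn1-/- cells at day -2 (27.3% called, beside 22.4% of all genes), and 6 higher and 3 lower in Mfn2-/- cells (40.9%, beside 35.5%). Both shares were near those of all genes. Amer2, a partner of the complex at the membrane, was higher in Mfn1-/- cells (157 ± 14.9 normalized counts against 5.35 ± 3.62, log2 fold change 4.77 ± 0.63, adjusted p = 4.40e-07). Of 13 tested nuclear cofactors, 2 were higher and 2 lower in Mfn1-/- cells at day -2 (30.8% called, beside 22.4% of all genes), and 3 higher and 3 lower in Mfn2-/- cells (46.2%, beside 35.5%). Tle1, a co-repressor of TCF factors, was lower in Mfn1-/- cells at day -2 (207 ± 8.78 normalized counts against 499 ± 42.1, log2 fold change -1.26 ± 0.19, adjusted p = 3.09e-06) and in Mfn2-/- cells (146 ± 10.3 normalized counts against 447 ± 73.2, log2 fold change -1.60 ± 0.19, adjusted p = 1.77e-08). Its relative Tle4 went opposite ways, at -0.89 in Mfn1-/- and 2.29 in Mfn2-/- cells (log2 fold changes, both called).

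Of 20 other receptors and planar polarity genes tested, 6 were higher and 5 lower in Mfn1-/- cells at day -2 (55% called, beside 22.4% of all genes), and 7 higher and 8 lower in Mfn2-/- cells (75%, beside 35.5%). Daam2, a formin that binds Dishevelled, was higher in Mfn1-/- cells (2256 ± 842 normalized counts against 45.1 ± 25.6, log2 fold change 5.69 ± 0.35, adjusted p = 1.92e-13) and in Mfn2-/- cells (1619.8 ± 112 normalized counts against 18.4 ± 6.39, log2 fold change 6.43 ± 0.35, adjusted p = 2.13e-15). Celsr1, a cadherin of planar polarity, was higher in Mfn2-/- cells (3151 ± 399.8 normalized counts against 8.97 ± 2.75, log2 fold change 8.33 ± 0.34, adjusted p = 3.80e-19). Lgr6, a receptor of R-spondins, was lower in Mfn1-/- cells (14.8 ± 2.94 normalized counts against 110.3 ± 45.7, log2 fold change -2.73 ± 0.51, adjusted p = 8.48e-05). The glypican Gpc4 was lower in both, by log2 fold changes of -2.73 in Mfn1-/- and -5.07 in Mfn2-/- cells.

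Of 6 other secreted modulators tested, 4 were higher and 1 lower in Mfn1-/- cells at day -2 (83.3% called, beside 22.4% of all genes), and 3 higher and 1 lower in Mfn2-/- cells (66.7%, beside 35.5%). Igfbp4, which can bind Frizzled and Lrp6 proteins besides insulin-like growth factors, was higher in Mfn1-/- cells (7513 ± 3387 normalized counts against 767 ± 266, log2 fold change 3.26 ± 0.42, adjusted p = 6.47e-07) and in Mfn2-/- cells (3241 ± 106 normalized counts against 145 ± 26.5, log2 fold change 4.49 ± 0.42, adjusted p = 6.48e-10). Cthrc1, which binds WNT and Frizzled proteins, was higher in Mfn1-/- cells (1185 ± 46.3 normalized counts against 311 ± 89.0, log2 fold change 1.96 ± 0.55, adjusted p = 0.00639) and at 0 in all 3 Mfn2-/- libraries. Of 10 further genes known as targets in other settings, 2 were higher and 2 lower in Mfn1-/- cells at day -2 (40% called, beside 22.4% of all genes), and 0 higher and 5 lower in Mfn2-/- cells (50%, beside 35.5%). Sox9, a transcription factor of cartilage and progenitors, was higher in Mfn1-/- cells (1.26) and lower in Mfn2-/- cells (-3.94, log2 fold changes, both called). At day +8 in the libraries labelled Mfn1-/-, 76.9% of the nuclear cofactors were called (2 higher and 8 lower). So were 75% of the receptors and planar polarity genes (4 and 11) and 70% of the targets (1 and 6). Of the destruction complex list 40.9% were called (5 and 4) and of the secreted modulators 83.3% (3 and 2), beside 50.2% of all genes.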

How the data were processed

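RNA of MEFs was sequenced as paired-end TruSeq libraries on a NovaSeq, and the submitters' processing notes name cutadapt, STAR, SAMtools, featureCounts and GRCm38. The deposited values are normalized gene counts, a signal read here as counts divided by 1 factor per library. The factors were taken to be set in 6 blocks of 6 libraries, blocks that the paper does not name. Versions and strand setting are not given in the sources used here. Dividing by the value of 1 read gave whole reads for 100% of values (within 0.01). The table of 16623 lines repeats 19 symbols, whose repeated lines were identical and were used once, and 99.8% of its 14761 genes matched GENCODE on GRCm38.

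The 14293 genes that reached 10 normalized counts in 3 or more libraries were fitted with limma 3.58.1 (trend and robust) in R 4.3.3 on log2(normalized count + 1), with 1 mean for each of 12 groups over all 36 libraries, two-sided tests and Benjamini-Hochberg adjustment over all genes. Knockout and WT were compared on the authors' scale, and days and WT sets on the TMM scale of edgeR 4.0.16. Alternatives were pseudocounts of 0.5 and 5, other filters, other scalings, only the comparison's libraries, edgeR and DESeq2 1.42.0 on the whole reads, each library left out and a replicate block. The comparisons of day 0 with day -2 and of the 2 WT sets were added after the data were seen.

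Same-lettered libraries deviated together (correlation over 0.1 in every pair) for Mfn1-/- and WT at day +3 (0.521 to 0.700) and day +8 (0.242 to 0.308). They also did for WT between days 0 and +3 (0.128 to 0.301). In the other comparisons checked not every pair was over 0.1, though some were. For Mfn1-/- and WT the range was 0.038 to 0.420 at day -2 and 0.094 to 0.243 at day 0. Day 0 with day -2, and Mfn2-/- with WT, were not checked. The p-values measure the spread between the libraries of this series. That spread was estimated once per gene over all 12 groups, so a gene has the same standard error for both knockout lines. Replicates were not equally alike. For Mfn2-/- cells and their WT set, chi-square per gene between 2 replicates of a group ran from 1.42 to 9.23. For Mfn1-/- cells and theirs it ran from 6.69 to 108. Calls and misses of either line thus rest on a pooled spread that need not be its own. WNT genes and gene lists were chosen with earlier results of these data known. Values by library were given for WNT genes with a group mean of at least 100 and a call of at least 1 on the log2 scale in a knockout comparison, and for a fixed set of core genes. WNT genes of lower level were named for completeness, and for Wnt2, Wnt2b and Wnt16 values by library were given as well. Of the further pathway genes up to 2 rises and 2 falls of a list were named, with no alternatives run. The fit was tested on simulated data. Markers came from fixed lists.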

Additional observations from a re-analysis of the deposited data

Results flagged for a closer look

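In 16 pairs of effects, from 13 WNT genes, both effects were called in opposite directions and the test of their difference was also called (limma, Benjamini-Hochberg adjusted p under 0.01). Both of the single effects held under every alternative only for Wnt2, Wnt9a and Tcf7l1 at day -2 and for Fzd1 between days. In every other pair an effect lost its call under some alternative. Groups of 3 libraries were too small for a check of outlying samples.

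At day -2 the Mfn1-/- effect minus the Mfn2-/- effect was -6.17 ± 0.44, adjusted p = 9.18e-13 for Axin2, -6.33 ± 0.84, adjusted p = 4.15e-07 for Wnt2 and -4.61 ± 0.65, adjusted p = 1.35e-06 for Wnt2b on the log2 scale. It was -6.10 ± 0.78, adjusted p = 3.77e-07 for Wnt5a and -4.85 ± 0.44, adjusted p = 2.60e-10 for Wnt9a. For Ctnnb1 it was 1.31 ± 0.20, adjusted p = 5.71e-06, for Fzd8 4.27 ± 0.26, adjusted p = 4.09e-14 and for Tcf7l1 1.74 ± 0.21, adjusted p = 5.02e-08. Thus 5 of the 8, among them 4 ligands, were lower in Mfn1-/- and higher in Mfn2-/- cells, and 3 the reverse.

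At day +8 the same difference was -3.16 ± 0.22, adjusted p = 4.73e-13 for Apcdd1, -1.82 ± 0.27, adjusted p = 1.37e-06 for Fzd7, -5.65 ± 0.53, adjusted p = 4.33e-10 for Lef1 and 1.24 ± 0.21, adjusted p = 9.61e-06 for Tcf7l1. Between days, the Mfn1-/- effect changed from day -2 to day +8 by -1.32 ± 0.20, adjusted p = 6.50e-06 for Ctnnb1, -2.71 ± 0.25, adjusted p = 2.41e-09 for Fzd1 and -5.88 ± 0.94, adjusted p = 1.30e-05 for Wnt16, and the Mfn2-/- effect by 2.02 ± 0.22, adjusted p = 4.59e-08 for Apcdd1. The day +8 libraries labelled Mfn1-/- did not hold less Mfn1 RNA than WT, and the part of this in the day +8 differences was not tested.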

How the results depend on the processing

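No result was reversed under any alternative tried, and 240 of 358 calls of a WNT gene in a comparison held under all of them. Of 340 recomputed counts of called WNT genes, 314 lay within 1.5 times the reported count and 26 did not. With only the libraries of the comparison in the fit, the counts went from 20 to 9 for Mfn1-/- against WT at day +3, from 15 to 24 for Mfn2-/- cells between days -2 and +8, from 11 to 6 for Mfn1-/- cells between days 0 and +3, from 22 to 13 and from 13 to 27 for the change of the Mfn1-/- and Mfn2-/- effects between days, from 6 to 3 for WT between days -2 and 0, and from 3 to 9 for the 2 WT sets at day +8. DESeq2 called 13 for Mfn1-/- against WT at day +3, 27 for the change of the Mfn2-/- effect, 15 for WT and 2 for Mfn1-/- cells between days -2 and 0, and 14 and 12 for the WT sets at days -2 and +8. On the authors' scale the counts were 17 for WT and 20 for Mfn1-/- cells between days 0 and +3, 14 for WT and 5 for Mfn1-/- cells between days -2 and 0, and 22 and 10 for the WT sets at days -2 and +8. The replicate block gave 5 for WT between days 0 and +3, where same-lettered libraries pair. It gave 3 for WT between days -2 and 0, where pairing was not checked. Apart from Nkd1 at day +3 and Wnt9a at day +8 in Mfn1-/- cells, it ended the calls listed with the other settings. The Mfn2-/- libraries could not be paired because their letters differ between labels and table. The causes were not tested.

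With 1 library left out the counts ranged from 22 to 26, 18 to 22, 17 to 20 and 21 to 24 for Mfn1-/- against WT at days -2, 0, +3 and +8, and from 27 to 28 and 25 to 28 for Mfn2-/- at days -2 and +8. Between days -2 and +8 they ranged from 16 to 21 and 22 to 24 for WT sets A to C and D to F, 22 to 24 in Mfn1-/- and 10 to 14 in Mfn2-/- cells. Between days 0 and +3 they ranged from 4 to 8 in WT (4 without WT library A of day 0) and 8 to 11 in Mfn1-/- cells, and between days -2 and 0 from 2 to 7 and 0 to 2. For the change of the effect between days they were 16 to 22 (Mfn1-/-) and 9 to 12 (Mfn2-/-), for the difference of the effects 20 to 23 and 23 to 26, and for the WT sets 6 to 8 and 2 to 3.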
